A study of Homo sapiens with 15 samples.

Results

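The genes described here encode the proteins of the cytosolic ribosome. They were chosen by symbol, as RPL or RPS followed by 1 or 2 digits and an optional A, L or X, together with RPSA, RPLP0, RPLP1 and RPLP2. Pseudogenes were left out, and at least 10 counts were required in at least 3 of the 15 libraries. Of 60664 gene IDs, 81 matched the pattern and 79 passed the count minimum, 32 for the small (40S) subunit and 47 for the large (60S) subunit. The 2 that did not pass are paralogues of RPL3 and RPL10. RPL3L, known from striated muscle, had 0 counts in all 15 libraries, and RPL10L, known from testis, reached at most 14 counts and met the minimum in 1 library. All 79 members were among the 16210 genes tested.

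A ribosome holds 1 copy of nearly every ribosomal protein, so cells make these proteins in matched amounts. Their mRNAs are short, abundant and stable, and most begin with a C followed by a run of pyrimidines, the 5′ terminal oligopyrimidine (TOP) motif, through which mTORC1 and the RNA-binding protein LARP1 control translation. MYC promotes transcription of ribosomal protein genes in many tumours. Both pathways lie downstream of growth factor receptors.

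RNA was sequenced from T47D, an established oestrogen receptor-positive luminal breast cancer line, in 5 groups of 3 libraries. PAR vehicle holds the parental subline PAR01, labelled sensitive to 4-hydroxytamoxifen (4-OHT, the active metabolite of tamoxifen), on 0.05% DMSO. The other 4 groups hold the resistant subline TR01 on vehicle (TR vehicle), 1 µM 4-OHT (TR 4-OHT), 5 µM erdafitinib, an inhibitor of the fibroblast growth factor receptors (TR erdafitinib), or both drugs (TR combination). PAR01 was maintained in 5% serum. TR01 was maintained in 2% charcoal-stripped serum with 1 µM 4-OHT, so the lines also differ in their growth medium. Before treatment, which lasted 120 h, all cells spent 24 h in culture plates and another 48 h in phenol red-free medium containing 2% charcoal-stripped serum. Each line is a single subline. The labels describe replicates as biological but name no separate cultures, so a p-value here reflects the spread among 3 libraries, part of which may be technical. The series title names the question as how FGFR inhibition bears on endocrine resistance.

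Total counts ranged from 6946684 to 28717380 and mitochondrial genes held 14.5 to 25.7% of them. The 3 shallowest libraries were PAR 2 (6946684), TR 4-OHT 2 (8990899) and PAR 1 (13150009), so 2 of the 3 parental libraries are among them. The 14 luminal markers were detected in all 15 libraries, with summed levels of 8254 to 9239 CPM (counts scaled to library size, with TMM factors) in PAR vehicle and 4453 to 6179 in TR vehicle. In absolute CPM, PGR had by far the widest range of the 14, at 124 to 4679 CPM over the 15 libraries. TFF1, at a far lower level, ran from 0.464 to 19.5 CPM. The 19 markers of leukocytes, endothelium, fibroblasts and red cells summed to 11.9 to 29.1 CPM in PAR vehicle and 13.7 to 39.1 in TR vehicle. COL1A1, at 11.9 to 34.8 CPM, made up most of that sum, and PTPRC stayed at or below 0.161 CPM. Pseudogenes named after the members held 0.219%, 0.277% and 0.145% of non-mitochondrial counts in PAR vehicle 1, 2 and 3 and 0.164% in TR 4-OHT 2, and 0.0965 to 0.131% in the other 11 libraries. The part of these markers and pseudogenes in the results was not tested.

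The start sites carry the feature that unites these genes. Below are 50 bases around the RefSeq start (30 before it and 20 from it, GRCh38.p14), with the longest C/T run at the start in capitals. RPL29, RPL24, RPL14 and RPSA are the members that were called lower in resistant cells in all 21 alternative analyses. RPL26 and RPS29 had the largest fold changes, and RPL36 and RPS15 have GC-rich mRNAs whose levels swung from library to library.
RPL29 (chr3:51995876-51995925, minus strand): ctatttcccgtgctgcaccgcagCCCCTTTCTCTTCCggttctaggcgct
RPL24 (chr3:101686699-101686748, minus strand): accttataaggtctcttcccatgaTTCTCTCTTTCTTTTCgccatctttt
RPL14 (chr3:40457309-40457358, plus strand): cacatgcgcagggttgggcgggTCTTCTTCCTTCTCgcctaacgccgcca
RPSA (chr3:39406690-39406739, plus strand): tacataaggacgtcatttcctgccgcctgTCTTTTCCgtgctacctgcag
RPL26 (chr17:8383174-8383223, minus strand): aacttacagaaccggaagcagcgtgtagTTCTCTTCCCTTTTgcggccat
RPS29 (chr14:49598691-49598740, minus strand): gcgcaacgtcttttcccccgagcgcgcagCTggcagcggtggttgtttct
RPL36 (chr19:5690265-5690314, plus strand): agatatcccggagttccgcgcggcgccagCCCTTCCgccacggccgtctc
RPS15 (chr19:1438366-1438415, plus strand): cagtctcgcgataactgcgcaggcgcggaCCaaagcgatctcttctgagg

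RPL24, RPL14, RPL29 and RPL26 carry runs of 14 to 16 pyrimidines, and RPS29 and RPS15 have only 2 at the annotated start. The RefSeq promoter table held 63 of the 79 members. A run of at least 8 pyrimidines that came within 5 bases of the start was present in 74.6% of these 63, and in 11.3% of all 27305 promoters of the table. The median longest run was 11 bases in members and 4 in all promoters. The annotated start base was C in 73.0% of members and 15.0% of all promoters, and the letters CTTTC lay on the sense strand within 20 bases of the start in 46.0% and 5.47%. CCGGAA, the core letters of ETS-family sites, occurred on either strand of the 300-base window in 54.0% of members and 17.6% of all promoters. AAGATGGC, the core letters of YY1 sites, occurred in 9.52% and 3.03% on either strand, and TATAAA in the 50 bases before the start in 3.17% and 2.92%. These letter matches overlap in places, since CTTTC falls inside many C/T runs, and they describe sequence and not binding. Among the 19 matched members that were lower in resistant cells, 68.4% had a run of at least 8 and 42.1% had CTTTC, and among the 44 matched members without a call the shares were 77.3% and 47.7%. The run was no more frequent at the starts of the members that fell, a difference that was not tested.

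Ribosomal protein mRNAs were a smaller part of the transcriptome in most resistant libraries, with overlap between the lines. The 79 members together held 4.95%, 6.27% and 7.07% of non-mitochondrial counts in PAR vehicle 1, 2 and 3. They held 3.72%, 5.47% and 4.79% in TR vehicle, 4.57 to 4.79% in TR 4-OHT, 4.15 to 4.93% in TR erdafitinib and 3.38 to 4.86% in TR combination. TR vehicle 2 was above PAR vehicle 1, and the other 11 resistant libraries were below all 3 parental ones. The ratio of counts in 60S genes to counts in 40S genes was 1.86 to 1.99 in PAR vehicle and 1.33 to 1.78 in TR vehicle, and it reached 2.01 in TR 4-OHT 2, one of the shallow libraries. In bulk RNA, fewer cells expressing a gene and less RNA per cell cannot be told apart.

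Per kilobase of transcript, the levels of the members ran over a wide range. The highest were RPS24 at 4183 CPM per kilobase (mean of 15 libraries), RPL41 at 2733, RPS18 at 2585, RPL7 at 2398 and RPS27 at 1824. Among the lowest were RPS28 at 21.4, RPL36A at 12.4, RPL39L at 7.97 and RPS10 at 5.48. RPS24 ranked 1 by transcript length and 13 by the length of all its exons together, so its place at the top depends on the length used. By the default of the counting program, which the file headers leave in place, reads that match several places were not counted, and many members have pseudogenes of near-identical sequence. The pseudogenes named after RPS10 held 82.7% of the counts of the gene and its pseudogenes in PAR vehicle and 65.3% in TR vehicle. For RPL36A the shares were 87.6% and 34.95%, for RPSA 69.6% and 79.2%, and for RPL17 58.6% and 12.1%. RPS10, RPL17 and RPL36A also share exon bases with the read-through genes RPS10-NUDT3, RPL17-C18orf32 and RPL36A-HNRNPH2 (40.3%, 32.9% and 8.40% of their exon bases). Levels and fold changes of these 4 genes are uncertain for that reason.

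In resistant against parental cells, both on vehicle, 23 of 79 members (29.1%) fell and 0 rose (edgeR quasi-likelihood F test, Benjamini-Hochberg adjusted p under 0.05 over 16210 genes). Over all genes tested, 16.0% fell and 19.9% rose, 35.9% in either direction. The median log2 fold change was -0.45 for members and 0.07 for all genes, and 65 members had a negative sign. At an unadjusted p under 0.05 28 of the 79 members passed, against 7236 of all 16210 genes. Of these 28 members, RPL36A and RPL17 had a positive sign. Of the 40S members 8 of 32 fell (median -0.32), and of the 60S members 15 of 47 fell (median -0.52). The difference between subunits was not tested. Every TR vehicle library was below every PAR vehicle library for 22 members and above for 1, RPL36A, against 18.5% and 22.5% of all genes. The members that fell did so by -0.50 to -2.45 (RPL26) on the log2 scale, and 8 of them by 1 or more.

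**Figure D1:**
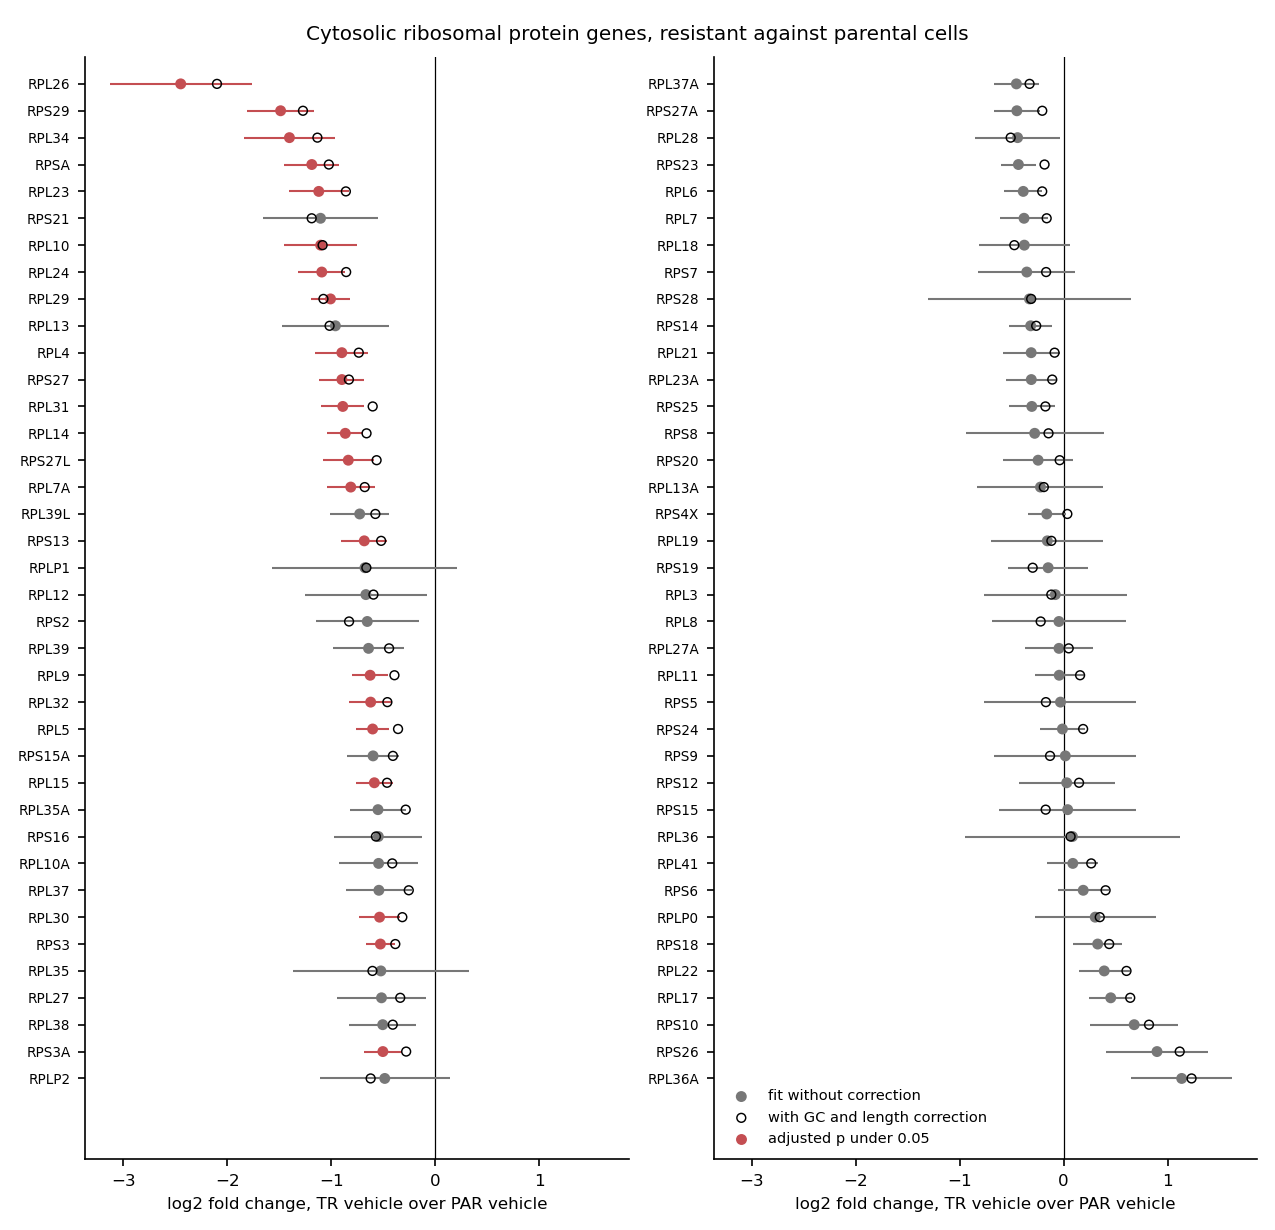
Log2 fold change (x axis) of members (y axis, in 2 columns ordered by fold change) in TR vehicle over PAR vehicle. Filled points are the fit without correction with bars of 1 SE, red at an adjusted p under 0.05, and open points are the values after correction for GC content and length. RPL26 lies lowest at -2.45, the red points stop at -0.50, and the members with the longest bars, such as RPL36 and RPS28, lie near 0.

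The falls with the smallest adjusted p-values, in RPL29, RPL14 and RPL24, were in genes of the 60S subunit. RPL29 (ENSG00000162244, chr3:51993522-51995895, minus strand), a small basic protein on the surface of the 60S subunit, stood at 413, 450 and 528 CPM in PAR vehicle. In TR vehicle it stood at 178, 276 and 238 CPM. The groups did not overlap, and all 12 resistant libraries (162 to 276 CPM) were below the lowest parental one. The log2 fold change was -1.01 ± 0.19 (SE, n = 3 per group, edgeR adjusted p = 0.000856). It was -1.19 without the 3 shallowest libraries, a fit in which PAR vehicle 3 is the only parental library.

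RPL24 (ENSG00000114391, chr3:101681091-101686718, minus strand), which bridges the 2 subunits, was at 827, 1078 and 859 CPM in PAR vehicle and 309, 540 and 449 CPM in TR vehicle. No resistant library reached the parental range, the highest being TR 4-OHT 2 at 680 CPM. It fell by 1.09 ± 0.22 on the log2 scale (SE, n = 3 per group, edgeR adjusted p = 0.00171). RPL14 (ENSG00000188846, chr3:40457292-40468587, plus strand) was at 756, 983 and 679 CPM in PAR vehicle and 400, 498 and 430 CPM in TR vehicle. Here too all 12 resistant libraries lay below the parental ones, with the highest again in TR 4-OHT 2 (633 CPM). It fell by 0.86 ± 0.17 (SE, n = 3 per group, edgeR adjusted p = 0.0015).

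RPL10, RPL4 and RPL7A followed the same division of the libraries. RPL10 (ENSG00000147403, chrX:154389955-154409168, plus strand), whose protein joins the 60S subunit late in its assembly and lies near the peptidyl transferase centre, was at 717, 645 and 1170 CPM in PAR vehicle and 207, 525 and 449 CPM in TR vehicle. RPL4, at 1847, 2060 and 2506 CPM in PAR vehicle and 732, 1407 and 1305 in TR vehicle, encodes a protein that lines the exit tunnel. RPL7A, which hosts 4 snoRNA genes, was at 1722, 1746 and 1861 CPM in PAR vehicle and 670, 1299 and 1068 in TR vehicle. TR vehicle 1 was the lowest of its group for all 3 genes, and all 12 resistant libraries stayed below all parental ones. The log2 fold changes were -1.101 for RPL10 (edgeR adjusted p = 0.0232), -0.90 for RPL4 (0.0129) and -0.81 for RPL7A (0.0137). For RPL10 the call was lost without PAR vehicle 3 and without TR vehicle 1, where the fold change lay between -1.35 and -0.76 over the 6 libraries left out in turn. For RPL4 it was lost without PAR vehicle 3.

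Of the 40S members, RPSA, RPS27 and RPS3 were also below all 3 parental libraries in all 12 resistant ones. RPSA (ENSG00000168028, chr3:39406716-39412542, plus strand) encodes a 40S protein also known as the laminin receptor precursor. It was at 346, 602 and 327 CPM in PAR vehicle and 147, 227 and 185 CPM in TR vehicle, with TR 4-OHT 2 at 324 CPM just under the lowest parental library. It fell by 1.19 ± 0.26 (SE, n = 3 per group, edgeR adjusted p = 0.00286). Without the 3 shallowest libraries, where PAR vehicle 3 is the only parental library, it fell by 0.80. The fold change of RPSA is uncertain, because its pseudogenes held 69.6% of the counts of gene and pseudogenes in PAR vehicle and 79.2% in TR vehicle.

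RPS27, a zinc-finger protein of the 40S subunit, was at 812, 1376 and 918 CPM in PAR vehicle and 640, 551 and 477 CPM in TR vehicle (log2 fold change -0.90, edgeR adjusted p = 0.00487). Its p53-responsive paralogue RPS27L was at 60.2, 81.6 and 45.5 CPM and 39.9, 34.8 and 30.03 CPM (log2 fold change -0.83, edgeR adjusted p = 0.0161), and its call was lost without PAR vehicle 2 and without TR vehicle 3. RPS3, which sits at the mRNA entry of the 40S subunit, had the smallest spread within groups of all members, an SD of 0.13 on the log2 scale. It was at 1581, 1932 and 1835 CPM in PAR vehicle and 1288, 1286 and 1140 CPM in TR vehicle (log2 fold change -0.53, edgeR adjusted p = 0.00951).

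Over all 12 resistant libraries, 18 of the 79 members were below all 3 parental libraries and 0 were above, against 13.5% and 16.7% of all genes. They included RPL4, RPL5, RPL7A, RPL9, RPL10, RPL14, RPL15, RPL24, RPL29, RPL31, RPL39L, RPS3, RPS3A, RPS13, RPS23, RPS27 and RPSA. RPL39L and RPS23 are on this list without a call in TR vehicle against PAR vehicle (edgeR adjusted p = 0.0628 and 0.0537). RPL5, which with RPL11 and 5S RNA binds MDM2, was at 633, 830 and 618 CPM in PAR vehicle and 369 to 509 CPM in the 12 resistant libraries. Its partner RPL11 did not separate, at 533, 583 and 837 CPM in PAR vehicle and 451, 788 and 658 CPM in TR vehicle (log2 fold change -0.04, edgeR adjusted p = 0.914).

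**Figure D2:**
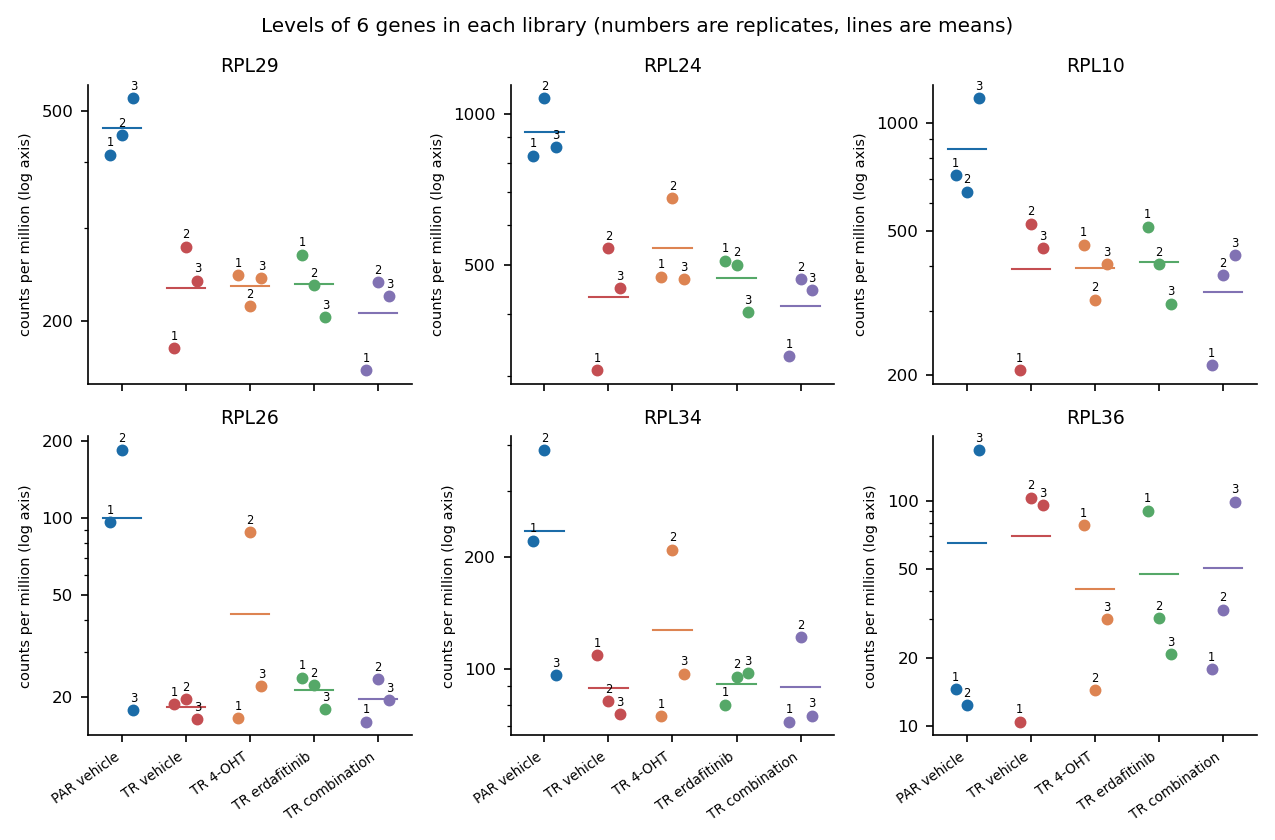
Level in CPM (y axis, log scale) of 6 members in the 15 libraries, by group (x axis). Points are libraries with their replicate number and lines are group means. RPL29, RPL24 and RPL10 are higher in all 3 parental libraries, RPL26 and RPL34 are highest in PAR vehicle 1, PAR vehicle 2 and TR 4-OHT 2, and RPL36 spans 10.4 to 169 CPM with PAR vehicle 3 at the top.

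Several of the largest fold changes came with a pattern in which shallow libraries of both lines were high. RPL24, RPL14 and RPSA shared it in lesser degree. For them PAR vehicle 2 was the highest parental library and TR 4-OHT 2 the highest resistant one. RPL26, whose protein lies at the exit of the tunnel and binds p53 mRNA, was at 96.5, 185 and 17.8 CPM in PAR vehicle and 18.7, 19.6 and 16.3 CPM in TR vehicle. PAR vehicle 3 lay within the resistant range, and TR 4-OHT 2 stood at 88.1 CPM. The log2 fold change of -2.45 ± 0.68 (SE, n = 3 per group, edgeR adjusted p = 0.0119) became 0.04 without the 3 shallowest libraries (edgeR adjusted p = 0.928).

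RPL34 was at 221, 387 and 96.0 CPM in PAR vehicle, 109, 81.7 and 75.5 CPM in TR vehicle and 209 CPM in TR 4-OHT 2. Its log2 fold change went from -1.40 (edgeR adjusted p = 0.0219) to -0.11 without the 3 shallowest libraries (edgeR adjusted p = 0.839). RPL23, a 60S protein that can also bind MDM2, was at 1623, 2496 and 1056 CPM in PAR vehicle, 764, 869 and 749 CPM in TR vehicle and 1602 CPM in TR 4-OHT 2. Its log2 fold change went from -1.12 (edgeR adjusted p = 0.00782) to -0.40 (edgeR adjusted p = 0.164). RPS29 was at 230, 471 and 177 CPM in PAR vehicle, 80.7, 117 and 116 CPM in TR vehicle and 194 CPM in TR 4-OHT 2, and its log2 fold change went from -1.49 (edgeR adjusted p = 0.00259) to -0.75 (edgeR adjusted p = 0.0703). In RPL26, RPL34, RPL23 and RPS29 too, TR 4-OHT 2 was the highest of the 12 resistant libraries. The part that depth played was not tested.

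Without the 3 shallowest libraries, a fit added after the data were seen, 1 parental library is left and its spread is assumed to be like that of the other groups. That library is PAR vehicle 3, whose GC slope, described below, was the highest of the 15. In that fit 9 members (11.4%) fell and 2 (2.53%) rose, with a median of -0.63, and 10.2% of all genes fell and 15.4% rose. The share of members that fell was thus near that of all genes. The 2 that rose were RPS10 (log2 fold change 1.93, edgeR adjusted p = 0.006) and RPL22 (1.01, edgeR adjusted p = 0.0366). The falls that were kept were RPL4, RPL10, RPL14, RPL15, RPL24, RPL29, RPS3 and RPSA, and RPS25 was added. RPL14, RPL24, RPL29 and RPSA were called lower in all 21 alternatives tried, and the other 19 falls lost the call in at least 1. Leaving out PAR vehicle 2 alone left 13 falls, and the calls lost included RPL9, RPL23, RPL26, RPL30, RPL32, RPL34, RPS3A, RPS13 and RPS27L. Leaving out TR vehicle 3 alone left 14. The shares of all genes called in these fits are not given here, so the losses cannot be called particular to the members.

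Members with GC-rich mRNAs varied far more between libraries than between groups. The GC content of the members' transcripts ran from 42.3% (RPS27L) to 62.8% (RPL36), with a median of 50.4% against 49.2% for all genes tested. The median transcript was 683 bases long, against 1665. RPL36 was at 14.6, 12.4 and 169 CPM in PAR vehicle and 10.4, 103.8 and 96.1 CPM in TR vehicle. RPS28 was at 11.2, 16.5 and 95.3 CPM and 4.23, 49.3 and 45.5 CPM. In both genes PAR vehicle 3, TR vehicle 2 and TR vehicle 3 were high and PAR vehicle 1, PAR vehicle 2 and TR vehicle 1 were low, so the groups overlapped throughout. The within-group SD on the log2 scale was 1.56 for RPL36 and 1.49 for RPS28.

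These swings moved with the GC effect of each library over all genes. The slope of log2 level on GC content, in log2 units per 10 percentage points over all tested genes, was 0.41 in PAR vehicle 3 and -0.24 and -0.33 in PAR vehicle 1 and 2. It was -0.54 in TR vehicle 1 and 0.39 and 0.37 in TR vehicle 2 and 3. Over the 79 members the same slope was 0.92 in PAR vehicle 3 and -0.97 in TR vehicle 1. It was further from 0 than that of all genes in each of the 15 libraries. The 26 members with the highest GC content had a median deviation from their 15-library mean of 1.41 in PAR vehicle 3, -1.31 in TR vehicle 1 and -1.07 in TR combination 1. The 26 with the lowest GC content stayed between -0.36 and 0.69.

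**Figure D3:**
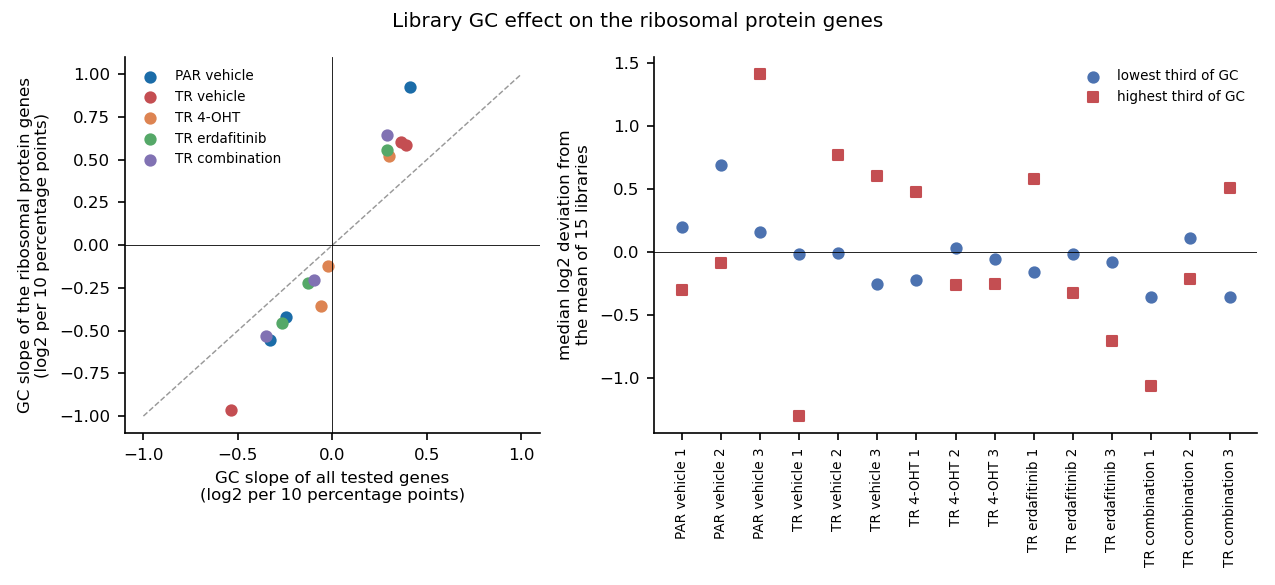
Left, slope of log2 level on GC content in each library over the members (y axis) and over all tested genes (x axis), in log2 units per 10 percentage points, with a dashed line of equal slopes. Right, median log2 deviation from the 15-library mean (y axis) of the 26 members of lowest and the 26 of highest GC content in each library (x axis). Members of high GC content reach 1.41 in PAR vehicle 3 and -1.31 in TR vehicle 1, and points on the left lie above the line at positive slopes and below it at negative ones.

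A correction for GC content and length, fitted per library over all genes, took away part of this. The median within-group SD of the members went from 0.44 to 0.40 on the log2 scale, and it became smaller for 45 of 79. For the 4976 genes with a mean log2 CPM of at least 5 it went from 0.25 to 0.17. After the correction the 26 members of highest GC content were still at 0.99 in PAR vehicle 3 and -0.83 in TR vehicle 1. Without the correction 10 of the 26 members of lowest GC content fell (median SE 0.24) and 3 of the 26 of highest GC content (median SE 0.57). With the correction 8 and 5 fell (median SEs 0.24 and 0.38). The errors were larger in GC-rich members in both fits. RPL29, RPL10 and RPL24 are not alike in GC content (58.0%, 54.6% and 47.8%).

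With the correction 21 members fell and 2 rose, against 20.6% and 26.2% of all genes, and the median was -0.32. The 19 members that fell with and without it included RPL4, RPL5, RPL7A, RPL9, RPL10, RPL14, RPL15, RPL23, RPL24, RPL26, RPL29, RPL31, RPL34, RPS3, RPS27, RPS27L, RPS29 and RPSA. RPL30, RPL32, RPS3A and RPS13 fell only without it. RPL13 and RPS2 fell only with it, at -1.02 and -0.83 on the log2 scale (edgeR adjusted p = 0.0274 and 0.0139). When PAR vehicle 3 and TR vehicle 1, the libraries of those groups with the most extreme slopes, were left out after the data were seen, 19 members fell, 5 rose and the median was -0.02, and 20.4% of all genes fell and 25.7% rose. The median of the members thus moved to near 0 without those libraries, while 15 of the 23 falls were kept.

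**Figure D4:**
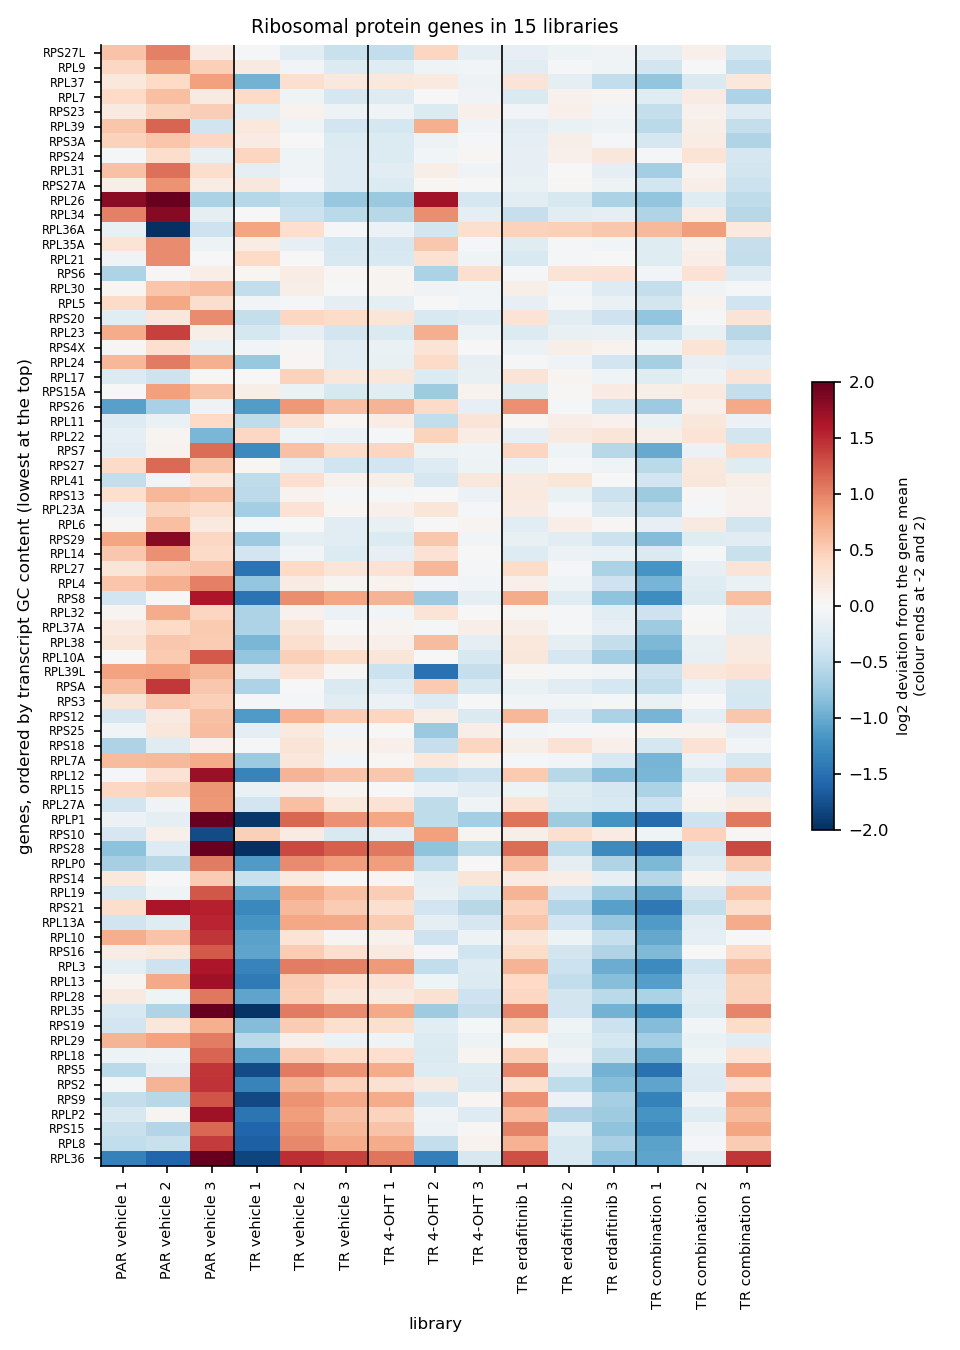
Log2 deviation of members (rows, ordered by GC content with the lowest at the top) from its own mean in the 15 libraries (columns, lines separate the groups), with colour ending at -2 and 2. The GC-rich rows at the bottom are high in PAR vehicle 3 and low in TR vehicle 1 and TR combination 1, while RPL26 and RPL34 are high in PAR vehicle 1, PAR vehicle 2 and TR 4-OHT 2.

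In the fit of all 15 libraries without the GC correction, no member rose by the test in resistant cells. RPL36A was at 6.63, 0.635 and 5.57 CPM in PAR vehicle and 12.7, 9.35 and 7.25 CPM in TR vehicle (log2 fold change 1.14, edgeR adjusted p = 0.0844). PAR vehicle 2 was far below the rest, the groups did not overlap, and with the correction it rose by 1.23 (edgeR adjusted p = 0.0287). RPL22, a non-essential 60S protein that regulates its paralogue RPL22L1, was at 181, 214 and 110 CPM in PAR vehicle and 274, 196 and 191 CPM in TR vehicle. With the correction it rose by 0.61 (edgeR adjusted p = 0.004), against 0.39 without it (edgeR adjusted p = 0.241), and the groups overlapped. RPS26, a protein of the mRNA exit channel, was at 34.2, 45.9 and 67.1 CPM and 33.3, 132 and 110 CPM, so that TR vehicle 1 was below all parental libraries (log2 fold change 0.90, edgeR adjusted p = 0.174).

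RPS10, which rose in the fit without the 3 shallowest libraries, stayed under 6 CPM in all libraries, and RPL17 was at 14.6 to 19.7 CPM in PAR vehicle and 19.6 to 26.9 in TR vehicle (log2 fold changes 0.68 and 0.45, edgeR adjusted p = 0.238 and 0.105). RPS6, the substrate of the S6 kinases, was at 960, 1491 and 1619 CPM in PAR vehicle and 1518, 1632 and 1490 CPM in TR vehicle, with overlap (log2 fold change 0.19, edgeR adjusted p = 0.586). RPS18 was at 996 to 1625 CPM and 1485 to 1817 CPM (0.33, edgeR adjusted p = 0.304), and RPL41, a very short protein, changed by 0.09 (edgeR adjusted p = 0.814). RPL3, RPL7 and the X-linked RPS4X changed by -0.08, -0.38 and -0.16 without a call. The stalk genes, whose proteins recruit translation factors, swung with the libraries. RPLP0 was at 727, 779 and 2370 CPM in PAR vehicle and 522, 2212 and 2053 in TR vehicle. RPLP1 was at 70.8, 66.9 and 394 CPM and 19.9, 170 and 144, and RPLP2 at 16.7, 21.6 and 67.5 CPM and 7.58, 37.2 and 31.4. Their log2 fold changes were 0.30, -0.67 and -0.48, with SEs of 0.58, 0.89 and 0.63, and none was called. The largest uncalled falls were RPS21 at -1.102 ± 0.55 (SE, n = 3 per group, edgeR adjusted p = 0.137) and RPL13 at -0.96 ± 0.52 (SE, n = 3 per group, edgeR adjusted p = 0.169).

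Ribosomal proteins outside the naming rule moved in both directions. Of 7 tested, 2 fell (28.6%) and 1 rose (14.3%), against 16.0% and 19.9% of all genes. FAU, a fusion of a ubiquitin-like domain with the 40S protein eS30, went from 37.7 to 13.8 CPM (log2 fold change -1.45, edgeR adjusted p = 0.0307), and RPL22L1 from 227 to 109 CPM (log2 fold change -1.06, edgeR adjusted p = 0.000518). RPL7L1, a nucleolar relative of RPL7, rose from 338 to 519 CPM (log2 fold change 0.62, edgeR adjusted p = 0.00884). The ubiquitin fusion RPS27A, a member, changed by -0.45 on the log2 scale without a call (edgeR adjusted p = 0.126), and RPL26L1 and RPL36AL by -0.36 and -0.26 (0.509 and 0.211). RACK1, a signalling scaffold on the 40S subunit, changed by -0.52 (edgeR adjusted p = 0.489).

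Among 27 other translation genes with TOP mRNAs, 5 fell and 0 rose, with a median log2 fold change of -0.19. The share that fell, 18.5%, was near the 16.0% of all genes. They included PABPC1, the poly(A)-binding protein (2887 to 1763 CPM, edgeR adjusted p = 0.0288), and NPM1, a nucleolar chaperone (2561 to 1596 CPM, edgeR adjusted p = 0.0024). Of 9 non-coding hosts of snoRNAs with TOP starts, 6 fell (66.7%, against 16.0% of all genes) and 0 rose, with a median of -1.08. GAS5 went from 577 to 130 CPM (log2 fold change -2.15, edgeR adjusted p = 2.67e-05), SNHG8 from 70.0 to 21.8 CPM (-1.68, edgeR adjusted p = 0.000311). Without the 3 shallowest libraries 4 of the 9 fell, with a median of -0.85. Of the members themselves, 12 of the 28 that hold snoRNA genes in their introns fell (median -0.53) and 11 of the 51 that do not (median -0.39). That difference was not tested.

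Of 40 ribosome biogenesis genes 5 fell (12.5%) and 1 rose (2.5%), below the 16.0% and 19.9% of all genes, with a median of -0.24. The falls included GNL3 (nucleostemin, -1.004, edgeR adjusted p = 0.00349) and SBDS, which frees the 60S subunit of EIF6 (-0.83, edgeR adjusted p = 0.00484). NOP2 rose by 2.28 (edgeR adjusted p = 0.000928) from 0.423 to 2.36 CPM. Its parental level rests on few reads, since 3 counts equal 0.120 to 0.432 CPM in the PAR vehicle libraries. Of 29 regulators of ribosomal protein synthesis, 5 fell and 5 rose (17.2% each), near the shares over all genes. MYC fell from 59.7 to 21.4 CPM (log2 fold change -1.48, edgeR adjusted p = 0.00558) and its partner MAX from 66.2 to 31.9 CPM (-1.05, edgeR adjusted p = 0.000225). DDIT4, an inhibitor of mTORC1, rose from 6.69 to 35.7 CPM (2.40, edgeR adjusted p = 6.32e-06), and RPS6KA1, a MAPK-activated kinase of RPS6, from 9.74 to 27.8 CPM (1.49, edgeR adjusted p = 0.0128). Of 79 mitochondrial ribosomal proteins 14 fell (17.7%, near the 16.0% of all genes) and 0 rose, with a median of -0.06, led by MRPS21 (89.8 to 15.8 CPM, log2 fold change -2.50, edgeR adjusted p = 9.61e-07).

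In resistant cells, no drug changed any of the 79 members by the test. With 4-OHT against vehicle 0 were called, against 0.0% of all genes, with a median log2 fold change of -0.03. With erdafitinib against vehicle 0 were called (background 0.0925%, median -0.02). With the combination, 0 were called against 4-OHT (background 0.642%, median -0.16), 0 against erdafitinib (background 0.0%, median -0.09) and 0 against vehicle (background 0.487%, median -0.18). The erdafitinib effect averaged over cells with and without 4-OHT called 0 members (background 1.71%), with a median of -0.13 against -0.01 for all genes and 81.0% of members below 0 against 52.1%. The interaction of the drugs called 0 (background 0.0%). DESeq2 and the other alternatives also called 0 members in these 7 comparisons. At an unadjusted p under 0.05 there was 1 member for 4-OHT against vehicle, where 127 of all 16210 genes passed. There were 2 for the combination against 4-OHT, where 1405 of all genes passed, and 0 for the other 5 comparisons. The comparisons share groups, so their fold changes are not independent.

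**Figure D5:**
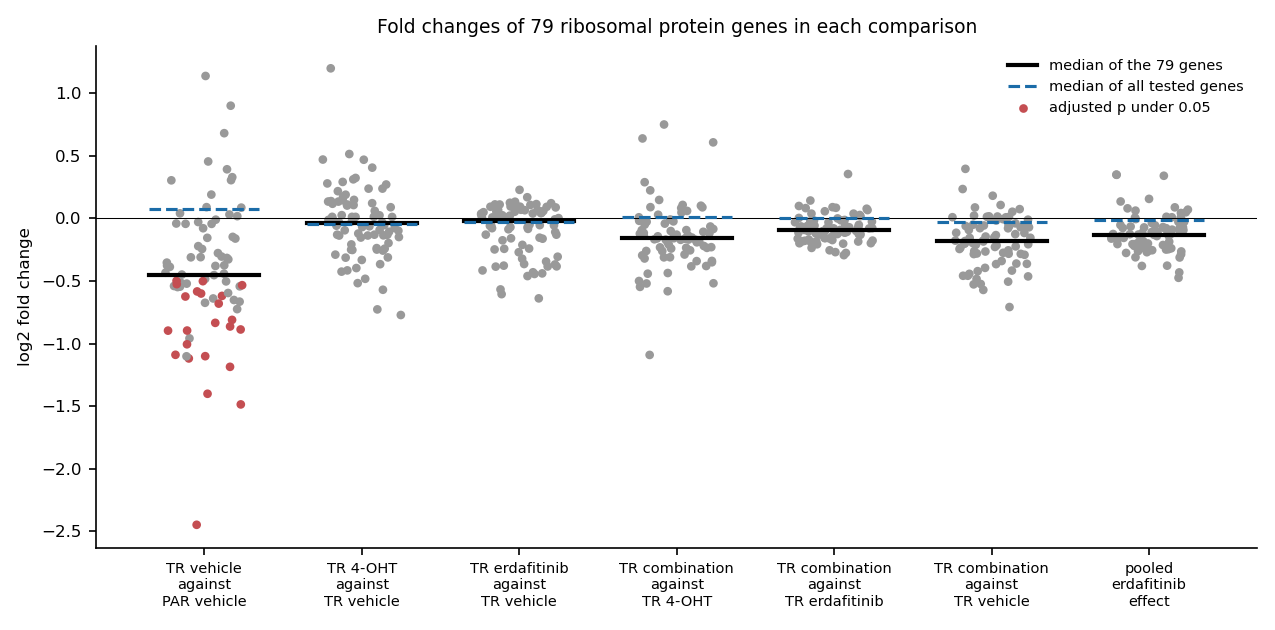
Log2 fold changes (y axis) of the 79 members in 7 comparisons (x axis), 1 point per gene with red at an adjusted p under 0.05. Black lines are medians of the members and dashed blue lines medians of all tested genes. The members lie below all genes in resistant against parental cells (-0.45 against 0.07), and no point is red in the 6 drug comparisons, where medians run from -0.18 to -0.02.

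The smallest p-values in the drug comparisons belonged to few genes. RPL39L, a low-level paralogue of RPL39, was at 4.75, 6.73 and 5.64 CPM in TR vehicle, 4.13, 1.99 and 4.04 CPM in TR 4-OHT and 4.14, 6.496 and 6.77 CPM in TR combination. The shallow TR 4-OHT 2 was the lowest library. TR 4-OHT did not overlap with TR vehicle or with TR combination, and those 2 overlapped with each other. Its log2 fold change was -0.73 for 4-OHT against vehicle (edgeR unadjusted p = 0.0247, adjusted p = 1.0) and 0.75 for the combination against 4-OHT (unadjusted p = 0.0215, adjusted p = 0.43). RPL39 itself was at 457, 371 and 305 CPM in TR vehicle and 310, 649 and 376 in TR 4-OHT, with TR 4-OHT 2 now the highest. RPL7A was at 1125, 1290 and 1163 CPM in TR 4-OHT, 1090, 1067 and 902 in TR erdafitinib and 582, 1026 and 886 in TR combination. All 3 combination libraries were below all 3 libraries on 4-OHT (log2 fold change -0.52, edgeR unadjusted p = 0.0404, adjusted p = 0.545), and TR combination 1 had the lowest level of all 15.

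For erdafitinib against vehicle the smallest unadjusted p was that of RPL15, a 60S protein, at -0.24 ± 0.17 on the log2 scale (SE, n = 3 per group, edgeR adjusted p = 1.0). RPL15 was at 452, 542 and 511 CPM in TR vehicle and 461, 418 and 392 CPM in TR erdafitinib, with overlap. RPL24 and RPL29, which fell between the lines, stayed at 403 to 510 CPM and 203 to 267 CPM with erdafitinib, within their ranges on vehicle. Of the 6 gene lists described for resistant against parental cells, ribosome biogenesis was the one with calls in these comparisons without the GC correction. In the averaged erdafitinib effect 2 of 40 were higher, against 1.71% of all genes called in either direction. The median of the 40 was 0.20, with 12.5% below 0. The 2 were NCL (nucleolin, 0.50 ± 0.11, edgeR adjusted p = 0.0326) and NOP14 (0.40 ± 0.09, edgeR adjusted p = 0.0484), with SEs over 3 libraries a group. With the GC and length correction other lists had calls too. In the combination against 4-OHT 1 of 27 TOP genes was lower, and 1 of 9 snoRNA hosts and 3 of 40 biogenesis genes were higher. Of all genes 1.21% were lower and 0.827% higher.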

How the data were processed

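Values are raw counts per Ensembl gene deposited by the authors. Per the file headers they were made with featureCounts 2.0.1 in paired-end, reverse-stranded mode against the Ensembl 104 annotation. The submitters' processing notes name HISAT2 2.1.0 and GRCh38, and give featureCounts as 1.4.6-p1. The command in the file headers sets no option to count reads that match several places or genes. Trimming was not given in the sources used here.

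Symbols came from the Ensembl-based name table (60463 of 60664 IDs), and GC content and transcript length from GENCODE 29 (58337 IDs, all 79 members). A single edgeR 4.0.16 quasi-likelihood model (R 4.3.3) covered the 5 groups and 15 libraries, with TMM scaling and filterByExpr (16210 genes kept) and 10 residual degrees of freedom. Calls were at a Benjamini-Hochberg adjusted p under 0.05 over all genes tested. SE is the absolute log2 fold change over the square root of F. CPM uses TMM-scaled totals. A count of 3 equals 0.105 to 0.432 CPM, depending on the library. Pairs of same-numbered libraries correlated at -0.83 to 0.77 in their deviations from group means, so the numbers were not taken to pair samples.

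The members, gene lists and tests were chosen with earlier results of these data known. Named genes were the 12 largest rises and falls between the lines, the 5 smallest p per drug comparison, the 5 highest and lowest levels, and fixed paralogues, with at most 4 per list. In resistant against parental cells, RPL14, RPS2, RPS3, RPS25 and genes named only in sets of calls fall outside this rule and were named after their values were seen. Some genes the rule names are not reported here. Alternatives covered scaling, filters, DESeq2, GC and length, the replicate block, thinning and left-out libraries. Scripts were tested on simulated counts.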

Additional observations from a re-analysis of the deposited data

How the results depend on the processing

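Between the lines, 23 members fell and 0 rose. The number that fell was 10 when only the groups compared entered the fit, 9 without the 3 shallowest libraries, 40 with a covariate for the first axis of variation within groups, and 13 to 24 with each library left out in turn (13 without PAR vehicle 2, 14 without TR vehicle 3). The number that rose was 1 with DESeq2, 2 with no filter on low counts, 2 with GC correction, 2 with GC and length correction (with or without the replicate block), 2 without the 3 shallowest libraries, 5 without PAR vehicle 3 and TR vehicle 1, 6 with the axis, and 0 to 1 with each library left out. With the replicate block 22 fell, and pairing by number was not borne out by the libraries. The median of the members, -0.45, was -0.0226 without PAR vehicle 3 and TR vehicle 1, and -0.61 to -0.23 with each library left out. Both fits without sets of libraries were chosen after seeing the data. The share of all genes called changes with the fit too. With all libraries and no correction 16.0% fell and 19.9% rose. With GC and length correction the shares were 20.6% and 26.2%, and without PAR vehicle 3 and TR vehicle 1 they were 20.4% and 25.7%. For the other fits no share of all genes is set beside the counts here, so those counts do not single out the members.

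All 23 falls kept their sign in the 21 alternatives except RPL26, which was 0.0428 without the 3 shallowest libraries. Without those libraries 12 of the 79 members had the other sign, of which RPL26 alone had a call with all libraries. They include RPL39 (-0.64 to 0.35), RPL21, RPS4X, RPS24, RPS9 and RPS12. Of the members with the largest rises and falls, RPLP0 was -0.56, RPS6 -0.0580, RPL41 -0.20, RPL36 -1.26 and RPS15 -0.82. Without the 2 shallowest RPL36 was -0.39 and RPS15 -0.24, and with thinned counts RPL36 was -0.02225 and RPS15 -0.0946. RPS15 was -0.17 with GC and length correction, -0.19 with the replicate block added and -0.23 with GC correction, and RPL22 was -0.0226 without PAR vehicle 3 and TR vehicle 1. With single libraries left out RPL36 ran from -0.39 to 2.40, RPS15 from -0.34 to 0.88, RPL41 from -0.0887 to 0.30 and RPS6 from -0.0046 to 0.36. The cause of these changes was not tested.

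In the drug comparisons 0 members were called under every alternative run. Medians of the members stayed within 1 within-group SD (0.41) of their value in each, and ran from -0.36 to 0.15. The limits are 3 libraries a group, 1 subline a line, and a GC effect of the libraries that the correction took away only in part. GC-rich members have the largest errors, so a missing call there says little.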

Other observations

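Pseudogenes named after the members numbered 1587, of which 89 were tested. Between the lines 42 of them were lower and 3 higher in TR vehicle, with a median log2 fold change of -1.51. Of all genes tested, 16.0% were lower and 19.9% higher. Without the 3 shallowest libraries, where PAR vehicle 3 is the only parental library, the median of the pseudogenes was -0.28. In TR 4-OHT against TR vehicle, where TR 4-OHT 2 is shallow, the median was 0.60 with 0 called, and 0.06 without the shallow libraries. RPS27P3 was at 117 CPM in PAR vehicle and 6.55 in TR vehicle (edgeR adjusted p = 0.00402). RPSAP15 was at 429 and 269 CPM (edgeR adjusted p = 0.0145), and RPSAP47, at 533 and 435 CPM, was not called (edgeR adjusted p = 0.375). These 3 were named after their values were seen. How reads divide between a gene and its copies was not tested.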
